A study of Mus musculus with 8 samples.

Results

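Type 1 and type 2 conventional dendritic cells (cDC1 and cDC2) that carried EGFP signal were compared with each other across all genes. The comparison set 2 libraries labelled cDC1 EGFP+ against 2 labelled cDC2 EGFP+, 4 of the 8 libraries of the study. All 4 came from tumours of WT mice, and the test was fitted on all 8 libraries. The tumours were grown from MC38-EGFP, the mouse colon carcinoma line MC38 marked with the fluorescent protein EGFP, and the cells were sorted from tumour tissue by flow cytometry. The other 4 libraries are the EGFP-negative cDC1 and cDC2 sorted from MC38-EGFP tumours in the same way, 2 of each, and the labels do not say which libraries share a tumour. The labels give no age, sex, time after implantation or number of mice pooled, and they enter colon cancer as the cell type of every library. Nothing in the labels says that replicates 1 and 2 came from separate mice, so the p-values measure the spread between these libraries. Below, cDC1 and cDC2 mean the EGFP-positive libraries unless EGFP-negative is written, and the 2 cDC1 replicates are given apart.

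As background, dendritic cells take up material from their surroundings, process it and display peptides to T cells. cDC1 depend on the transcription factors BATF3 and IRF8, carry the chemokine receptor XCR1 and the dead-cell receptor CLEC9A, and are known for cross-presenting tumour antigens to CD8 T cells. cDC2 carry SIRPA and CD11b, depend in part on IRF4 and KLF4, and are known for presenting antigen to CD4 T cells. In tumours, monocytes and macrophages share CD11b and SIRPA with cDC2, and fluorescent protein from a marked tumour can be found in any of these phagocytes.

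The 4 libraries held 17869441 to 20039994 read counts, and the 8 libraries up to 22195681. Ribosomal Rn45s took 24.8% to 35.6% of the counts in the 4. The cDC1 replicates had reads for 8553 and 8208 genes, fewer than the 11143 and 11922 of the cDC2 replicates and the 9602 to 10951 of the EGFP-negative libraries. The cDC1 replicates also differed most from each other. Of 7949 genes with at least 100 counts in either of them, 1856 (23.3%) had 0 counts in the other, against 2.51% for cDC2 and 2.81% to 7.49% for the EGFP-negative pairs. Over the 11394 genes tested, Pearson's r between replicates, across genes that are not independent, was 0.629 for cDC1 and 0.85 to 0.898 for the other 3 pairs. Part of the values at or near 0 in 1 cDC1 library therefore sit beside high values in its replicate, and the part that the low number of genes detected plays in this was not tested. In these bulk samples, fewer cells of a type and less RNA per cell cannot be told apart.

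The cDC1 libraries held the defining cDC1 genes, while the libraries labelled cDC2 held macrophage genes and little of the general cDC genes. Levels are given as CPM, read counts scaled to library size with TMM factors, which are not corrected for gene length and so compare 1 gene between libraries. Xcr1 stood at 222 and 103 CPM in cDC1 replicates 1 and 2 and at 5.31 and 0.148 in cDC2. Clec9a stood at 49.0 and 129 CPM against 11.1 and 0.396, and Itgae, which encodes CD103, at 290 and 221 against 5.57 and 0. Both cDC1 libraries lay above both cDC2 libraries for each of the 3 genes. Flt3, the growth factor receptor of all conventional dendritic cells, stood at 67.2 and 67.8 CPM in cDC1 but at 5.15 and 0.0495 in cDC2. Zbtb46, a transcription factor that sets conventional dendritic cells apart from monocytes, stood at 29.7 and 37.0 against 0 and 1.04. Over the whole macrophage and monocyte list of 28 genes, the summed level was 56620 and 31750 CPM in the cDC2 libraries and 842.9 and 15600 in cDC1. Of the cDC2 genes, Sirpa reached 338 and 170 CPM and Itgam (CD11b) 312 and 253 in the cDC2 libraries, and Cd209a 19.2 and 38.7. The label cDC2 is therefore used below as the name of the sorted gate, and the part of monocytes or macrophages in each difference was not tested.

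Markers of red blood, T, NK, B, mast, neutrophil and endothelial cells were low, while the epithelial, plasmacytoid and matrix lists held more. All 8 red blood cell genes were at 0 counts in the 4 libraries, and 12 of 15 T and NK cell genes present in the table were at 0, with summed levels of 0.0437 and 18.52 CPM in cDC1 and 2.133 and 0.6433 in cDC2. The B cell list summed to 0 to 13.89 CPM, the mast cell and basophil list to 0 to 15.29 and the neutrophil list to 0.04373 to 41.56. Of 17 epithelial or tumour cell genes, 9 were at 0 counts in all 4, the keratins Krt8 and Krt18 among them, and the list summed to 767 and 2776 CPM in cDC1 and 2657 and 1487 in cDC2. These sums came from the other members of the list. Cd44, given under other observations, made up the smaller part of each sum, and the part of tumour cell RNA in the sums was not tested. The endothelial list summed to 7.871 to 53.94 CPM, and the plasmacytoid dendritic cell list to 242.1 to 426.3. Most of the plasmacytoid sum in each library came from Irf7 and Bst2, which are also interferon-response genes and are given under other observations. Of the 12 plasmacytoid genes, 4 were at 0 counts in both cDC1 libraries and 6 in both cDC2 libraries. The fibroblast and matrix list summed to 1256 CPM in cDC1 replicate 1, 267.9 in replicate 2 and 526.6 and 879.8 in cDC2. Fn1 (fibronectin), given below, made up most of the sum in replicate 2 and in both cDC2 libraries, and almost none of it in replicate 1.

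**Figure D1:**
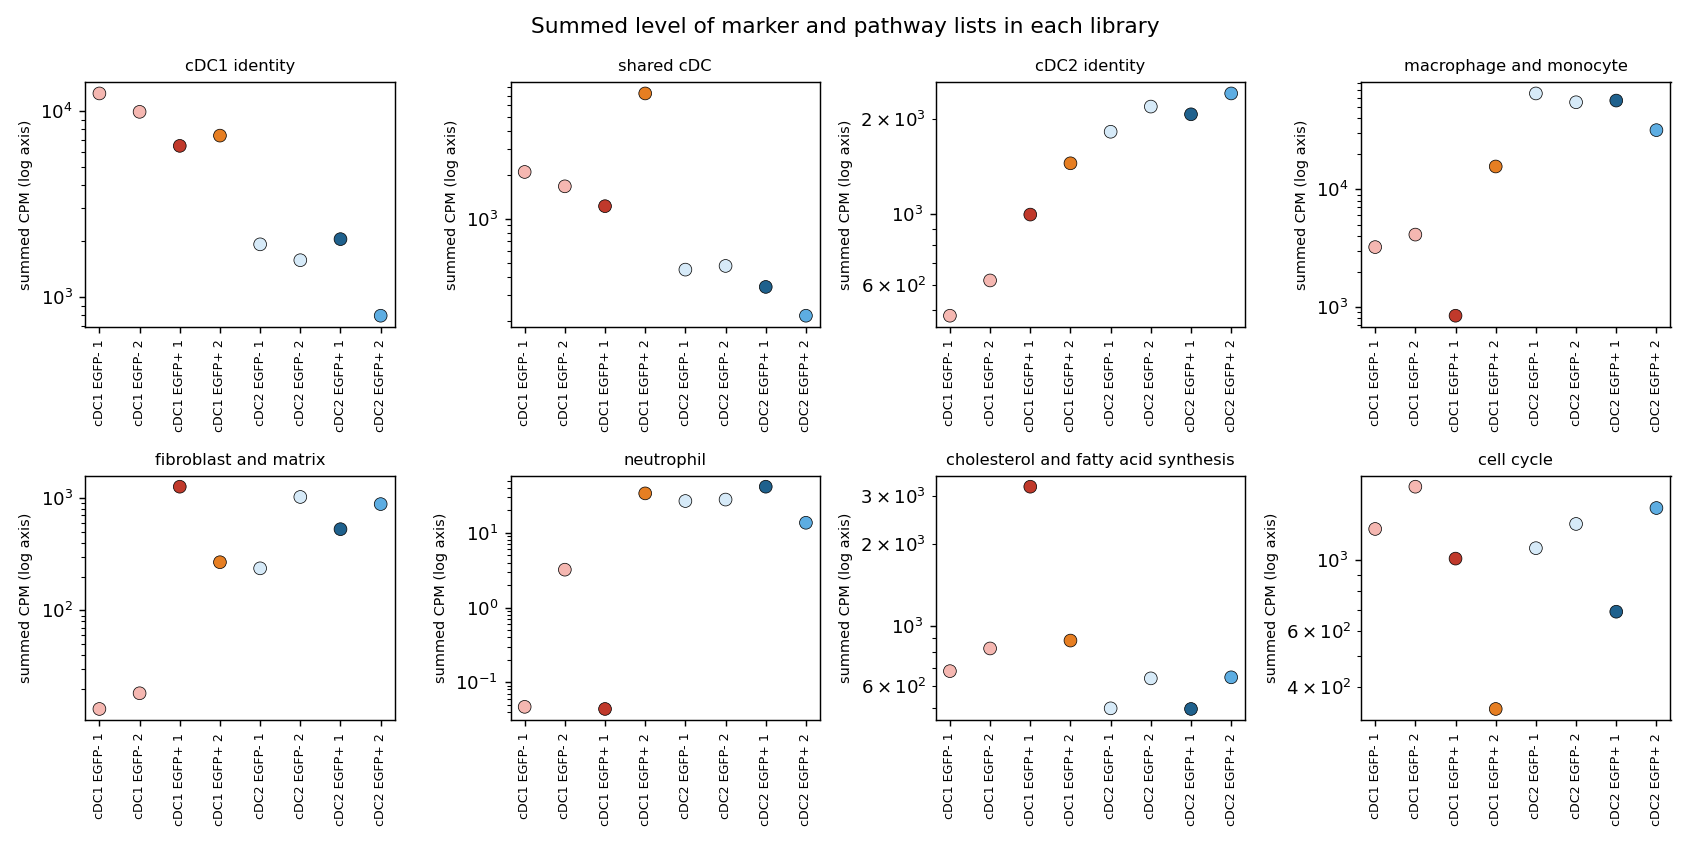
Summed TMM-scaled CPM (log axis) of 8 gene lists in each of the 8 libraries, 1 point a library, with EGFP-positive cDC1 in red (replicate 1) and orange (replicate 2) and EGFP-positive cDC2 in blue. The cDC1 list is higher in both cDC1 replicates (6504 and 7383 CPM) than in cDC2 (2051 and 795.2). The macrophage, matrix, cholesterol synthesis, shared cDC, neutrophil and cell cycle sums set the 2 cDC1 replicates apart. The shared cDC list stands at 1219 and 7238 CPM in them, most of the latter from Ccr7, and the cell cycle list at 1011 and 341.9.

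Between cDC1 and cDC2, 26 genes passed the test (edgeR quasi-likelihood, adjusted p under 0.05 over 11394 genes, called below). Of these, 13 were higher in cDC1, 0.114% of the genes tested, and 13 were lower, also 0.114%. Cd24a, Cnn2 and H2-Oa had the smallest p of the genes higher in cDC1, and Pf4, Wfdc17 and Hgsnat of those lower. The test favours genes whose groups lie apart and whose replicates are alike. Where called genes are said below to have these traits, this describes them and is no separate support. An unadjusted p under 0.05 was reached by 1810 genes, 547 higher and 1263 lower. The median log2 fold change of all genes tested was -0.30, and -0.20 under RLE size factors in place of TMM, so changes are read against a shift of that size.

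Cd24a had the smallest p of the genes higher in cDC1. This gene on chromosome 10 (43579169 to 43584265, GRCm38) encodes the surface glycoprotein CD24 that marks cDC1 in mouse tumours. Its level was 575 and 723 CPM in cDC1 replicates 1 and 2 and 39.5 and 22.8 in cDC2. The groups were far apart and the cDC1 replicates close to each other, with a log2 fold change of 4.38 (SE 0.38, edgeR adjusted p = 0.0223). Cst3, which encodes the protease inhibitor cystatin C, stood at 12356 and 21088 CPM against 1775 and 1064 (log2 fold change 3.56, SE 0.42, edgeR adjusted p = 0.0378). Both genes also separated the subsets in the EGFP-negative libraries, by 5.58 for Cd24a and 4.59 for Cst3 on the log2 scale.

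The MHC class II presentation genes H2-Oa and Cd83 were also called. H2-Oa encodes a chain of H2-O, which tunes peptide loading by H2-DM, and stood at 76.4 and 102 CPM in cDC1 against 2.44 and 1.93 in cDC2. Its log2 fold change was 5.35 (SE 0.52, edgeR adjusted p = 0.0253). Cd83, whose product holds MHC class II and CD86 at the cell surface, stood at 785 and 1206 CPM against 143 and 164 (log2 fold change 2.7, edgeR adjusted p = 0.0401). In both genes every cDC1 library was above every cDC2 library.

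Cnn2, Zyx and Lsp1 encode actin-associated proteins. Cnn2 (calponin 2) stood at 500 and 425 CPM in cDC1 against 33.1 and 34.5, a log2 fold change of 3.77 with SE 0.33 (edgeR adjusted p = 0.0223). Zyx (zyxin, of focal adhesions) stood at 886 and 461 against 73.4 and 74.1, and Lsp1, a leukocyte F-actin-binding protein, at 882 and 1212 against 137 and 61.1. These 3 genes rose by 3.19 to 3.77 on the log2 scale, with edgeR adjusted p-values of 0.0223 to 0.0467. Syngr2 (synaptogyrin 2, of transport vesicles) rose by 3.67, Anxa6 (annexin A6, a calcium-dependent membrane binder) by 2.67 and Itm2c, an integral membrane protein, by 2.31. Herpud1, of endoplasmic reticulum-associated degradation, stood at 599 and 420 CPM against 32.7 and 43.2 and rose by 3.75. Pfkp, the platelet form of the glycolytic enzyme phosphofructokinase, stood at 435 and 485 against 70.9 and 76.4 and rose by 2.64. Within each of these genes the 2 cDC1 replicates differed by less than the distance to the nearer cDC2 library on the log2 scale. The test itself favours such genes.

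Genes called lower in cDC1 were mostly near 0 there. Of the 13, 11 were under 1 CPM in both cDC1 replicates, and Ptpn12, Cebpa and Cd93 had 0 counts in both. Pf4, on chromosome 5 (90772435 to 90773383), encodes the chemokine CXCL4 of platelets and tissue macrophages and had the smallest p of all genes. It stood at 0.175 and 0.421 CPM in cDC1 and at 884 and 783 in cDC2, with a log2 fold change of -11.47 (SE 0.77, edgeR adjusted p = 0.00941). Ccl8, a monocyte-attracting chemokine, stood at 0.0437 and 0.912 against 1595 and 1763, and fell by 11.85. C1qa, a chain of complement C1q made by macrophages, stood at 0.481 and 4.21 against 2476 and 979, and fell by 9.54. For these 3 genes both cDC1 replicates were low and both cDC2 libraries were high, and the EGFP-negative cDC1 libraries were low as well, at 2.2 CPM or less. However, 6 of the 13 genes called lower were at 10 CPM or more in both EGFP-negative cDC1 libraries. Among them were Hgsnat at 12.6 and 24.5 CPM, Il7r at 12.8 and 62.7 and Wfdc17 at 128 and 156.

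Folr2 encodes the folate receptor of tissue-resident macrophages and had 1 count in the 2 cDC1 libraries together against 6478 in cDC2, a ratio of 6099 with a 95% counting interval of 1094 to 240949 (exact binomial, edgeR adjusted p = 0.0284). Mmp13, a collagenase, had 2 counts against 3668, a ratio of 1727 (478 to 14264). Hgsnat, a lysosomal enzyme of heparan sulphate breakdown, had 1 count against 2217, a ratio of 2087 (374 to 82485). The intervals cover counting error only, since several reads can come from 1 molecule. Cd93, a C1q-like surface receptor, stood at 114 and 60.5 CPM in cDC2 and was at least 1077-fold lower in cDC1, taking 3 counts over the 2 libraries as the floor. Cebpa, a transcription factor of monocytes and granulocytes, stood at 76.3 and 40.2 CPM in cDC2 and was at least 721-fold lower on that floor. Ptpn12, a tyrosine phosphatase, stood at 71.7 and 34.3 and was at least 656-fold lower. These bounds too cover counting error only, and 23.3% of genes with at least 100 counts in either cDC1 library had 0 in the other. In EGFP-negative cDC1, Ptpn12 stood at 14.0 and 13.6 CPM, Cebpa at 5.28 and 2.56 and Cd93 at 0.0934 and 0. Il7r, the interleukin 7 receptor alpha chain, fell by 9.45 on the log2 scale. Wfdc17, a small secreted protein of activated macrophages, fell by 4.0 on that scale and alone kept a clear level in cDC1, at 43.9 and 51.3 CPM against 641 and 885.

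**Figure D2:**
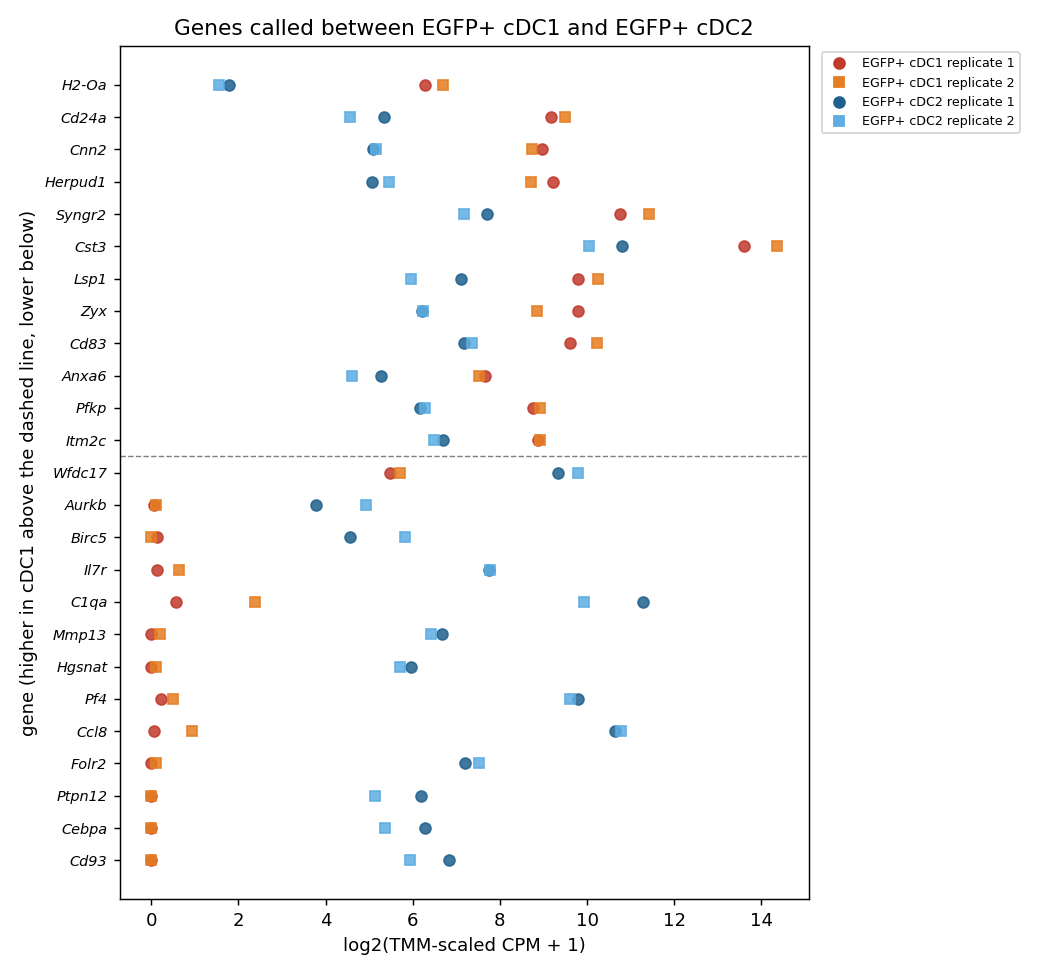
TMM-scaled CPM on a log2(CPM + 1) scale (x axis) of 25 of the 26 called genes (y axis) in the 4 EGFP-positive libraries, 1 symbol a library. The 12 genes above the dashed line are higher in both cDC1 replicates, and of the 13 below it 11 lie under 1 CPM in both cDC1 replicates.

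Promoters of genes from both directions are shown because Pf4 and Ccl8 fell together and H2-Oa rose. RefSeq promoter sequences for GRCm38.p6, from 250 bases before to 50 bases after the start, were found for 16 of the 26 called genes. They are given 5′ to 3′ on the gene's strand, and capitals mark matches on either strand to GAGGAAG, the core bound by PU.1, or to TTGCNNAA, a C/EBP-type site.
Pf4, chr5:90772185-90772484, plus strand: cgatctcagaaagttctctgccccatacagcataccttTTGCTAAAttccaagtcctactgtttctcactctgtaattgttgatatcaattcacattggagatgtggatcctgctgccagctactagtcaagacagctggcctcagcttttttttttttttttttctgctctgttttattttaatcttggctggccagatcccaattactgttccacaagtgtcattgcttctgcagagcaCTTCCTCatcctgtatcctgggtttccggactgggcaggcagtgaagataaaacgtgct
Ccl8, chr11:82114935-82115234, plus strand: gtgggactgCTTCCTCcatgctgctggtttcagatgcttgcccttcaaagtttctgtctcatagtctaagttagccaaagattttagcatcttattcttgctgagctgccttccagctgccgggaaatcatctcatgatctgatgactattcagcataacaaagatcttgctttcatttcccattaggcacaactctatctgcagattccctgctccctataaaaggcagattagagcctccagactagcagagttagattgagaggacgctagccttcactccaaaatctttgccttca
H2-Oa, chr17:34092129-34092428, plus strand: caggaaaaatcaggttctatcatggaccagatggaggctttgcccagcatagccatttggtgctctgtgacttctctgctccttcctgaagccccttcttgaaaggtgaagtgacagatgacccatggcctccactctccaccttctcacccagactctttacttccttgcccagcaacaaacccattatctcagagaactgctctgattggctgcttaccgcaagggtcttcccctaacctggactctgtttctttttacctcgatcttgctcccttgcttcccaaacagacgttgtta
The PU.1 core was found in 3 of the 8 promoters of genes called lower and in 0 of the 8 of genes called higher, and in 13.5% of the 27025 promoters of all genes. The C/EBP-type site was found in 2 of 8 and 0 of 8, and in 10.8% of all. An IRF element, GAAANNGAA, was found in 2 of 8 and 0 of 8 (8.57% of all), and an AP-1 site, TGANTCA, in 1 of 8 and 1 of 8 (7.93%). Both strands were searched, and matches to different motifs may overlap. Each match is a description of the letters in this window.

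The count depended on the fit. The common dispersion of the fit was 1.279, and the count of 26 was 1578 with DESeq2, 153 without the low-count filter, 12 without robust estimation, 11 with voom quality weights (11 higher and 0 lower, so that all 13 lower calls were lost) and 0 when the 4 EGFP-positive libraries were fitted alone (1678 at an unadjusted p under 0.05). Without cDC1 replicate 1 or 2 it was 847 or 1273 with 12405 or 12481 genes tested. In those fits the lone cDC1 library is assumed to vary like the other groups, and the cause of the larger count was not tested. Without the low-count filter 24 of the 26 stayed called, and C1qa and Ccl8 did not (edgeR adjusted p = 0.0681 and 0.0835). Without cDC2 replicate 1 or 2 the count was 13 or 1, without EGFP-negative cDC2 replicate 1 or 2 it was 1 or 1, and without EGFP-negative cDC1 replicate 1 or 2 it was 19 or 19. The 26 genes kept their direction in each of these fits.

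Lists of known genes were read against the background of all genes tested, in which both cDC1 libraries lay above both cDC2 libraries for 13.7% and below them for 33.2%. Of the 20 cDC1 identity genes tested, 18 lay above in both, and 1 (Cd24a) was called. Their median log2 fold change was 4.04, against -0.30 for all genes, and was 6.01 without cDC2 replicate 1 and 3.22 without cDC2 replicate 2. Dpp4, a peptidase found on cDC1, stood at 48.0 and 104 CPM against 0.624 and 0 (log2 fold change 7.91, edgeR adjusted p = 0.102). Wdfy4, needed for cross-presentation by cDC1, stood at 192 and 226 against 42.5 and 11.6. Ifi205 stood at 1511 and 1038 against 150 and 43.4. Batf3 stood at 16.3 and 20.7 against 4.06 and 1.19, and Irf8 at 418 and 1317 against 234 and 98.6. None of Dpp4, Wdfy4, Ifi205, Batf3 and Irf8 passed the test, with edgeR adjusted p-values of 0.0746 to 0.188, although no library overlapped the other group.

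The shared cDC list had 13 of 17 genes above in both cDC1 libraries, 1 of them called (H2-Oa), with a median log2 fold change of 4.39. P2ry10, a lysophospholipid receptor, stood at 63.6 and 179 CPM against 5.77 and 1.19, and Traf1, an adaptor of TNF receptors, at 150 and 456 against 27.3 and 25.4 (edgeR adjusted p = 0.0734 for both). The cDC2 identity list had 8 of 17 genes below in both cDC1 libraries and 2 above, with 0 called. Klf4 stood at 26.1 and 69.7 CPM in cDC1 against 175 and 236, and Cd209a at 0 and 0 against 19.2 and 38.7. Relb, an NF-kB subunit placed in that list, went the other way, at 79.1 and 230 against 12.7 and 15.8, and so did Tbx21, the transcription factor T-bet, at 8.05 and 55.8 against 0 and 0. Irf4 stood at 0 and 11.9 against 9.62 and 13.3, and Mgl2, a lectin of cDC2 and macrophages, at 0.0875 and 28.9 against 27.8 and 101, so the groups overlapped for both.

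Of 18 MHC class II presentation genes tested, 11 were above in both, 2 were called (H2-Oa and Cd83) and 2 were below. The median log2 fold change was 1.44, and 2.29 without cDC2 replicate 1 and 1.0 without cDC2 replicate 2. The class II chain H2-Aa stood at 13210 and 18309 CPM against 5822 and 3068, and the invariant chain Cd74 at 18877 and 27186 against 13519 and 6707. H2-DMb2, of the loading complex, stood at 90 and 216 against 7.86 and 7.27. Log2 fold changes were 1.83 for H2-Aa, 1.19 for Cd74 and 4.34 for H2-DMb2, with edgeR adjusted p-values of 0.106, 0.214 and 0.0734. In the MHC class I and cross-presentation list 12 of 29 genes were above and 3 below, with 0 called. The peptide transporter genes Tap1 and Tap2 stood at 366 and 517 and at 311 and 408 CPM, against 162 and 136 and against 92.2 and 60.6. Among 15 genes of costimulation and checkpoint, 10 were above and 2 below, and 0 were called. Pdcd1lg2, which encodes the PD-1 ligand PD-L2, stood at 192 and 241 CPM against 45 and 6.98.

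Genes of phagocytes were mostly lower in cDC1. Of 28 macrophage and monocyte genes, 20 were below in both cDC1 libraries, 1 was above and 3 were called, Pf4, Folr2 and C1qa. Chemokine ligands had 14 of 22 genes below and 2 called, Pf4 and Ccl8. Cxcl3, a neutrophil attractant, stood at 0 and 0.0701 CPM against 105 and 40.7, and Ccl12, which draws monocytes, at 3.10 and 4.77 against 184 and 102 (edgeR adjusted p = 0.0646 and 0.0802). In the lysosome list 21 of 39 genes were below and 3 above, with 0 called. The proteases Ctsb and Ctsd stood at 403 and 754 and at 120 and 217 CPM, against 3032 and 1874 and against 1888 and 898. Lamp1, of the lysosomal membrane, stood at 206 and 265 against 747 and 444, while Ppt1, a palmitoyl thioesterase also placed in the cDC1 list, stood at 452 and 418 against 171 and 77.8.

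Genes of cholesterol efflux and lipid droplets had 13 of 21 below in both cDC1 libraries, 2 above and 0 called. The median log2 fold change was -2.29, and -5.44 without cDC1 replicate 2. Plin2, a coat protein of lipid droplets, stood at 231 and 163 CPM against 1122 and 802, with a log2 fold change of -2.29 (SE 0.34, edgeR adjusted p = 0.0579). Pltp, a phospholipid transfer protein, stood at 0.0437 and 0 against 103 and 118. Nceh1, a cholesterol ester hydrolase, stood at 3.85 and 12.1 against 103 and 89.4, and Fabp5, a fatty acid carrier, at 12.9 and 2.60 against 834 and 281. These genes are also high in macrophages, and the macrophage list summed to 842.9 and 15600 CPM in cDC1 against 56620 and 31750, so its part in the difference was not tested.

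Of 30 cell cycle genes tested, 16 lay below both cDC2 libraries, 0 above, and 2 were called. Birc5, which encodes survivin of the chromosomal passenger complex, stood at 0.0875 and 0 CPM against 22.6 and 55.4, or 2 counts against 1555 (ratio 732, 95% counting interval 202 to 6050, edgeR adjusted p = 0.0339). Aurkb, the mitotic kinase of the same complex, stood at 0.0437 and 0.0701 against 12.8 and 29.5 (ratio 397, 110 to 3282, edgeR adjusted p = 0.0401). The cyclins Ccnb1 and Ccna2 stood at 0.0701 CPM or less in both cDC1 libraries against 10.8 and 43.3 and against 8.32 and 62.0 (edgeR adjusted p = 0.0620 and 0.0646). In EGFP-negative cDC1, Birc5 stood at 82.9 and 79.8 CPM and Aurkb at 33.8 and 42.0. The summed level of the list did not separate the groups, at 1011 CPM in replicate 1, 341.9 in replicate 2 and 689.4 and 1456 in cDC2. The mean log2(CPM + 1) over the genes tested did, at 2.49 and 2.09 in cDC1 against 3.81 and 5.02 in cDC2. The replication helicase gene Mcm2, chosen after its values were seen, stood at 191 and 17.7 CPM against 18.5 and 18.1, and so was high in replicate 1 alone of the 4 libraries. The number of genes detected was also lowest in these 2 libraries, and its part in values of 0 was not tested.

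**Figure D3:**
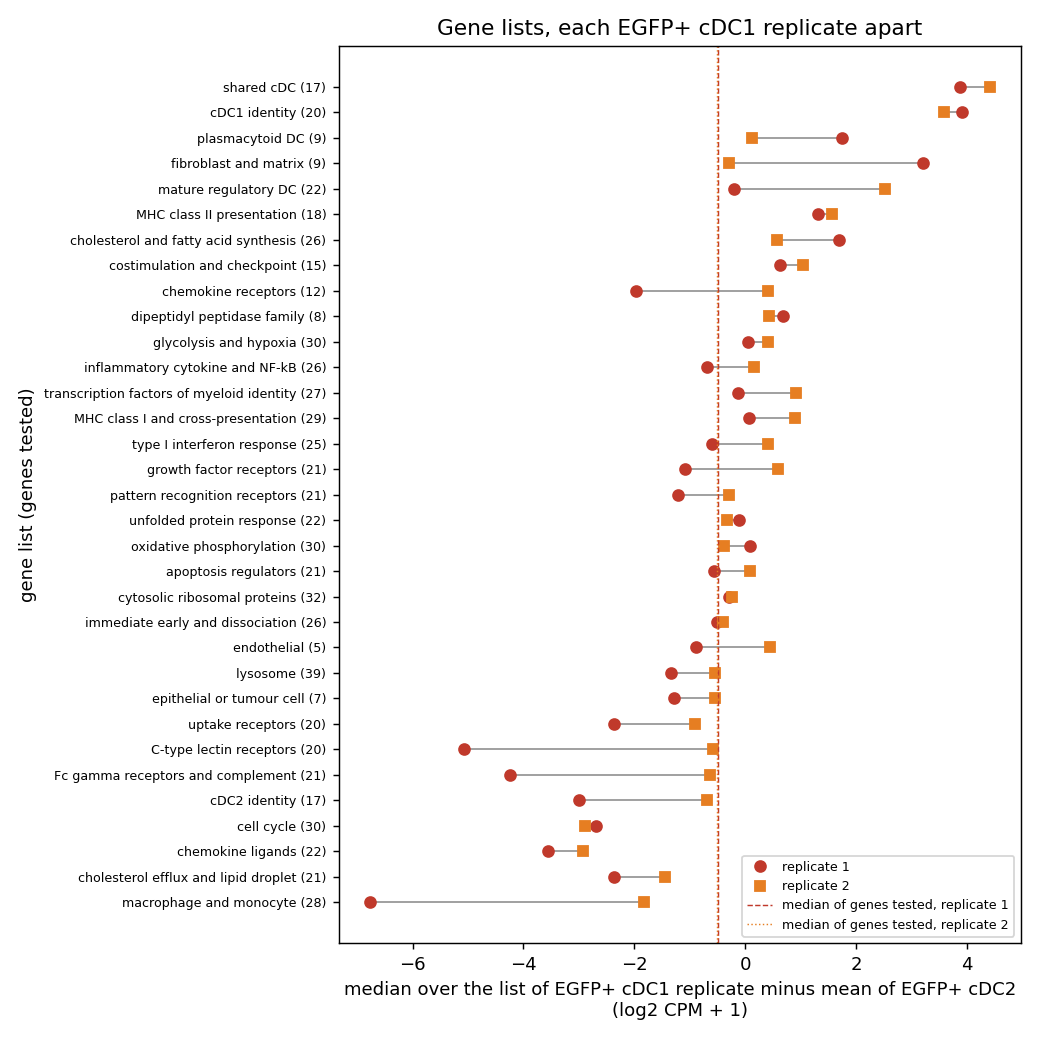
Median over each gene list (y axis, number of genes tested in parentheses) of the log2(CPM + 1) difference between 1 EGFP-positive cDC1 replicate and the mean of the 2 EGFP-positive cDC2 libraries (x axis). Vertical lines mark the medians of all genes tested, -0.50 for replicate 1 and -0.51 for replicate 2. The cDC1, shared cDC, MHC class II and cell cycle medians nearly coincide for the 2 replicates, and the macrophage, lectin, matrix and mature regulatory lists do not.

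Each cDC1 replicate was then set apart against the mean of the 2 cDC2 libraries, on a log2(CPM + 1) scale, with 4-fold as the limit and no test. Replicate 1 was at least 4-fold higher for 1146 genes (10.1%) and lower for 2611 (22.9%). Replicate 2 was higher for 777 (6.82%) and lower for 2386 (20.9%). Both replicates were higher for 239 genes (2.1%) and both lower for 1148 (10.1%). In 228 genes the replicates lay at least 4-fold from cDC2 in opposite directions. Of the 1148 genes lower in both, 603 (52.5%) had 0 counts in both cDC1 libraries. Genes with 0 counts in both cDC1 libraries numbered 1768 of those tested, against 232 with 0 in both cDC2 libraries, beside the lower number of genes detected in cDC1.

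**Figure D4:**
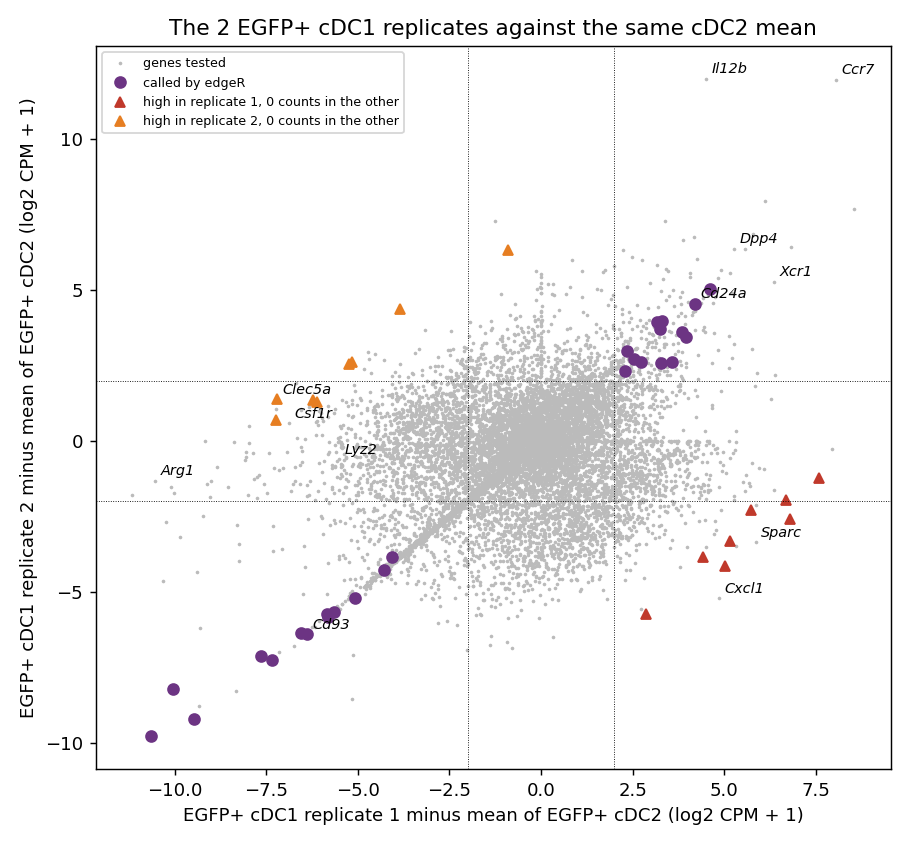
Difference in log2(CPM + 1) from the mean of the 2 EGFP-positive cDC2 libraries for cDC1 replicate 1 (x axis) and replicate 2 (y axis), 1 grey point a gene, with dotted lines at 4-fold. Called genes (purple) lie where the replicates are alike, which the test itself favours, so their place is no separate support. Triangles are the 8 genes of highest CPM in 1 cDC1 replicate with 0 counts in the other, and their place off the diagonal follows from that choice.

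Replicate 1 held matrix genes that were low or at 0 in replicate 2. Sparc, a collagen-binding matrix protein, stood at 674 CPM in replicate 1, 0.140 in replicate 2 and 0.0520 and 126 in cDC2. Bgn, the proteoglycan biglycan, stood at 269 and 21.4 against 1.61 and 41.6, and Col6a1, a collagen VI chain, at 176 and 9.89 against 0 and 8.66. Replicate 1 was the highest of the 4 libraries for these 3 genes, and cDC2 replicate 2 held some of each. Fn1 (fibronectin) went the other way, at 0.131 and 231 CPM against 525 and 652. In EGFP-negative cDC1 the whole list of 18 genes summed to 13.31 and 18.35 CPM, against 1256 and 267.9 in EGFP-positive cDC1. Most of the 267.9 in replicate 2 was Fn1. EGFP-negative cDC2 summed to 236.4 and 1018 CPM. Of the 9 genes tested, 6 were at least 4-fold higher in replicate 1 and 0 in replicate 2, and 0 were called.

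The 8 genes of highest CPM in replicate 1 with 0 counts in replicate 2 were Has1, Tubb3, Plat, Nppb, Igfbp4, Angptl2, Il1rl1 and Pcolce, at 260 to 659 CPM. They include a hyaluronan synthase (Has1), tissue plasminogen activator (Plat), a collagen-processing enhancer (Pcolce) and the interleukin 33 receptor (Il1rl1). Has1 stood at 659 CPM there and at 0.156 and 29.4 in cDC2, and Igfbp4, an IGF-binding protein, at 383 against 23.0 and 116. All 8 were higher in cDC2 replicate 2 than in cDC2 replicate 1 and lower in both than in cDC1 replicate 1. Cxcl1, a neutrophil-attracting chemokine chosen after its values were seen, stood at 1681 and 0.561 CPM against 113 and 28.6. Xist, the RNA of the inactive X chromosome in female cells, stood at 0.0875 CPM in replicate 1 and at 9.52 to 44.9 in the other 7 libraries.

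The summed level of cholesterol synthesis genes was highest in replicate 1. The list of 26 genes, which includes fatty acid synthesis, summed to 3258 CPM there, 884.3 in replicate 2 and 495.3 and 647.6 in cDC2, and 11 genes were at least 4-fold higher than cDC2 in replicate 1 and 1 in replicate 2. Fdps (farnesyl diphosphate synthase) stood at 800 and 184 CPM against 62.2 and 53.8, Fdft1 (squalene synthase) at 99.7 and 22.4 against 11.9 and 7.42, and Mvd, of the mevalonate pathway, at 108 and 26.2 against 16.6 and 5.79. Srebf2, the transcription factor that drives the pathway, was alike in the replicates, at 62.8 and 61.3 against 22.3 and 24.4. Both replicates lay above cDC2 for these 4 genes and for 12 of the 26, and 0 were called (edgeR adjusted p = 0.121 for Fdps).

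Replicate 2 held macrophage, monocyte and lectin genes that were low or at 0 in replicate 1. Lyz2, which encodes lysozyme, stood at 290 CPM in replicate 1 and 8767 in replicate 2, against 17544 and 10205 in cDC2. Apoe (apolipoprotein E) stood at 1.31 and 1542 against 7544 and 3788, and Csf1r, the receptor for macrophage growth factor, at 1.27 and 401 against 344 and 205. For Lyz2 and Apoe replicate 2 lay below both cDC2 libraries, and for Csf1r above both. Sirpa stood at 0.0437 and 99.0 CPM in the cDC1 replicates and Itgam at 0.0437 and 181. Arg1 (arginase 1) and Cd14, chosen after their values were seen, stood at 1.27 and 1361 and at 1.18 and 831, against 4703 and 2427 and against 3413 and 1712.

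The macrophage list therefore split in replicate 2. Of its 28 genes, 26 were at least 4-fold lower than cDC2 in replicate 1, but 13 in replicate 2 and 12 in both. The 12 include Pf4, Folr2 and C1qa, given above, and Mrc1, the gene of the mannose receptor CD206, which stood at 0.175 and 0.210 CPM against 433 and 323 (edgeR adjusted p = 0.0734). Adgre1, which encodes F4/80, stood at 41.6 and 0.421 against 254 and 116, and so was lower in replicate 2 than in replicate 1. The median difference of the list from cDC2 was -6.77 in replicate 1 and -1.82 in replicate 2.

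The 8 genes of highest CPM in replicate 2 with 0 counts in replicate 1 were Clec5a, Arl5c, Clec4e, Pik3r1, Chil3, Trem1, Ltb4r1 and Serpinb6b, at 148 to 380 CPM. Clec5a and Clec4e (Mincle) are lectin receptors of myeloid cells, Trem1 an activating receptor and Ltb4r1 the leukotriene B4 receptor. In cDC2 these 4 genes stood at 202 and 105, at 183 and 123, at 94.3 and 58.0, and at 100 and 47.0 CPM. They were higher in replicate 2 than in both cDC2 libraries and were not detected in replicate 1, where 3 counts correspond to 0.131 CPM. Over the 20 C-type lectin genes tested, 15 were at least 4-fold lower than cDC2 in replicate 1 and 4 in replicate 2, with medians of -5.07 and -0.59. Among 21 genes of Fc gamma receptors and complement the counts were 16 and 5.

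Ccr7 and Il12b, of the mature regulatory dendritic cell list, were higher in replicate 2 than in replicate 1. Ccr7, the receptor that guides dendritic cells to lymph nodes, stood at 368 and 5495 CPM against 0.208 and 0.594 in cDC2, with a log2 fold change of 12.81 (SE 2.19, edgeR adjusted p = 0.0734). Il12b, the p40 subunit of interleukin 12, stood at 25.3 and 4648 against 0.0520 and 0.247 (edgeR adjusted p = 0.126). Cd83 and Relb, given above, differed less between the replicates. Both replicates lay above both cDC2 libraries for the 4 genes, and for Ccr7 and Il12b replicate 2 was also far above the EGFP-negative cDC1 libraries, at 277 and 70.8 CPM for Ccr7 and 16.8 and 98.6 for Il12b. Of the 22 genes tested, 7 were at least 4-fold higher in replicate 1, 12 in replicate 2 and 7 in both, against 2.1% of all genes for both. At least 4-fold lower were 5 in replicate 1 and 2 in replicate 2, against 22.9% and 20.9% of all genes. The list median was -0.20 in replicate 1 and 2.52 in replicate 2, against -0.50 and -0.51 for all genes. Bhlhe40, a transcription factor, stood at 344 and 1127 CPM against 118 and 82.9.

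**Figure D5:**
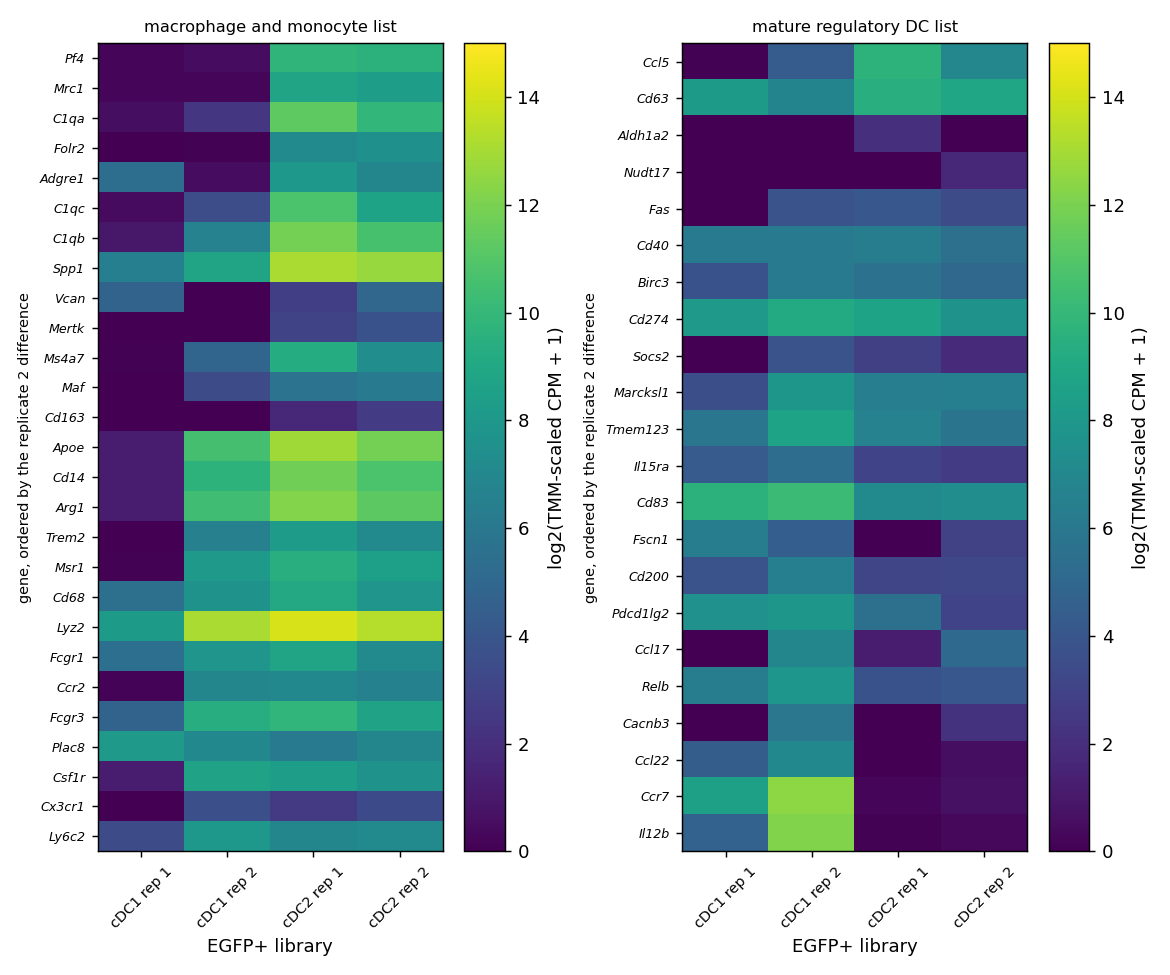
log2(TMM-scaled CPM + 1) (colour) of 27 genes of the macrophage and monocyte list (left) and the mature regulatory dendritic cell list (right) in the 4 EGFP-positive libraries, genes ordered by the replicate 2 difference. In cDC1 replicate 1 most macrophage genes are dark, and in replicate 2 the rows from Apoe down approach the cDC2 columns while Pf4, Mrc1, C1qa and Folr2 at the top do not. Ccr7 and Il12b at the bottom right are brightest in replicate 2.

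The same subset contrast in EGFP-negative cells was set beside these values. Of the 26 called genes, 24 separated the 2 EGFP-negative subsets in the same direction and 11 were called there too. Of all genes tested, 21.9% separated the EGFP-negative subsets with cDC1 higher and 26.5% with cDC1 lower, and 41 (0.36%) were called. Of the 26, Aurkb and Birc5 went the other way, with EGFP-negative cDC1 above EGFP-negative cDC2. The test of whether the cDC1 minus cDC2 difference itself differed between EGFP-positive and EGFP-negative cells called 0 genes (0%) with edgeR, where 1180 genes reached an unadjusted p under 0.05 and the smallest adjusted p was 0.141. DESeq2 called 707, and edgeR called 515 without cDC1 replicate 1, 668 without cDC1 replicate 2 and 29 without the low-count filter.

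Among the genes of smallest p in that test were Birc5, Aurkb and Ptpn12, given above, and the 7 genes that follow. Pkm (pyruvate kinase) stood at 2503 and 3429 CPM in cDC1 against 1840 and 1557 in cDC2, but at 758 and 937 in EGFP-negative cDC1 against 3826 and 3354 in EGFP-negative cDC2. Pfkl, the liver form of phosphofructokinase, stood at 184 and 187 against 76.5 and 56.6, and at 24.6 and 29.3 against 109 and 123 in EGFP-negative cells. Slc16a3, the lactate exporter MCT4, stood at 195 and 329 against 110 and 77.1, and at 38.6 and 32.7 against 245 and 292. In these 3 genes cDC1 lay above cDC2 among EGFP-positive cells and below it among EGFP-negative cells, with edgeR adjusted p-values of 0.141 to 0.154 for the difference. Dusp6, a phosphatase of the ERK pathway, stood at 163 and 65.9 against 32.6 and 50.1, and at 0.0934 and 0 against 99.8 and 65.1. Nfkbie, an inhibitor of NF-kB, stood at 210 and 287 against 75.1 and 47.3, and at 62.4 and 62.2 against 181 and 186. Rnase4, a secreted ribonuclease whose value is uncertain because its locus overlaps that of Ang, stood at 9.58 and 33.8 against 101 and 106, and at 0.0467 and 0.0466 against 102 and 127. Wls, needed for Wnt secretion, overlapped among EGFP-positive cells, at 57.0 and 26.7 against 26.9 and 39.0, and stood at 0.0934 and 0.0466 in EGFP-negative cDC1 against 34.6 and 44.0. Of the 30 glycolysis and hypoxia genes, 11 lay above and 4 below in EGFP-positive cDC1, and 1 above and 24 below in EGFP-negative cDC1. The median log2 fold change was 0.45 among EGFP-positive cells, 0.031 without cDC1 replicate 2, and -2.09 among EGFP-negative cells. The mean over the list went the other way among EGFP-positive cells, with both cDC1 libraries below both cDC2 libraries (mean difference -0.14 on the log2(CPM + 1) scale). At least 4-fold lower than cDC2 were 6 of the genes in replicate 1 and 6 in replicate 2, and higher 3 and 2. Pfkp was the 1 gene called among EGFP-positive cells.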

How the data were processed

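Bulk RNA-seq libraries of sorted tumour dendritic cells were analysed from the gene table of raw read counts that the authors deposited. Per the labels' protocols, libraries were made with a published low-input full-length cDNA method and the KAPA Hyper Prep kit. The submitters' processing notes name Trimmomatic 0.39, STAR 2.7.5c, Cufflinks 2.2.1 and the mm10 build. Not given in the sources used here are the read counter, the annotation, the use of strand and the treatment of reads from near-identical copies.

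Of 24369 genes, 11394 passed edgeR's filterByExpr by group. All 8 libraries were fitted with 1 mean per group (edgeR 4.0.16, R 4.3.3, TMM, robust quasi-likelihood test, Benjamini-Hochberg adjustment, threshold 0.05), and the script was tested on simulated data. Each cDC1 replicate was also compared on log2(CPM + 1), with a pseudocount of 1. Groups came from the sample labels. Alternatives used DESeq2 1.42.0, voom weights of limma 3.58.1, other size factors, filters, pseudocounts and folds, a replicate block, the EGFP-positive libraries alone and each library left out.

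Members and gene lists were chosen with earlier results of these data known. Some genes are not reported here, 1 of the called genes among them. Named genes are the other called genes, from 12 of largest change in each direction plus the remaining 1 in each (Itm2c and Wfdc17), up to 4 genes of smallest p per list, the markers of each cell type, the 8 highest genes of 1 cDC1 replicate with 0 counts in the other, and up to 10 genes of smallest p in the subset by EGFP test. Genes outside this rule, such as matrix, monocyte and cytokine genes that set the replicates apart, were chosen after their values were seen. Gene symbols matched RefSeq for 23075 genes (94.7%).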

Additional observations from a re-analysis of the deposited data

How the results depend on the processing

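The count of 26 genes differing between cDC1 and cDC2 was 1578 with DESeq2, 153 without the low-count filter, 12 without robust estimation, 11 with voom quality weights, 0 with the EGFP-positive libraries alone, and 1 to 1273 with 1 library left out. With RLE size factors it was 27, with the stricter filter 32, and without Rn45s, chosen after seeing the data, 26. The test of a different subset gap by EGFP called 0 genes, 707 with DESeq2, 29 without the low-count filter and 0 to 668 with 1 library left out. Under the replicate block 0 genes were called (1382 at an unadjusted p under 0.05). The labels do not say what a shared replicate number marks, and same-numbered libraries deviated together with correlations of -0.224 to 0.0408, so the block is no paired analysis. Of the genes 4-fold apart in both cDC1 replicates, 239 higher and 1148 lower, a pseudocount of 0.1 gave 2216 lower and a pseudocount of 5 gave 102 higher and 257 lower. At least 10 CPM in 2 libraries gave 632 lower, an 8-fold limit gave 89 and 470, and leaving out a cDC2 library gave 279 to 304 and 1233 to 1374. The cause of these shifts was not tested. Direction changed only in genes that were not called. With voom weights the log2 fold change was -3.94 for Arl5c, -5.49 for Chil3, -7.29 for Clec5a, -1.93 for Igfbp4, -0.070 for Il1rl1, -6.51 for Ltb4r1, -5.44 for Pik3r1 and -6.57 for Trem1, and under the block -2.02 for Chil3, -0.80 for Clec5a, -0.99 for Ltb4r1 and -1.95 for Trem1. With 1 library left out it ranged from -11.7 to 7.07 for Angptl2, -11.14 to 4.45 for Arl5c, -0.011 to 6.49 for Bgn, -12.69 to 2.47 for Chil3, -14.64 to 0.67 for Clec4e, -14.65 to 1.31 for Clec5a, -7.75 to 0.55 for Csf1r, -6.96 to 5.10 for Cxcl1, -11.18 to 10.99 for Has1, -13.42 to 3.06 for Igfbp4, -12.55 to 6.5 for Il1rl1, -10.9 to 0.059 for Irf4 and -13.59 to 1.20 for Ltb4r1. It ranged from -0.041 to 3.39 for Mcm2, -10.0 to 11.72 for Nppb, -10.76 to 11.13 for Pcolce, -12.53 to 2.64 for Pik3r1, -8.41 to 11.94 for Plat, -7.67 to 13.53 for Serpinb6b, -8.74 to 12.5 for Sparc, -13.64 to 1.31 for Trem1, -12.36 to 6.21 for Tubb3, -0.30 to 0.79 for Wls and -8.29 to 0.62 for Xist. Depth limits the low side: 3 counts correspond to 0.131 to 0.21 CPM.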

Other observations

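Regulators of cell death differed gene by gene. Pmaip1, which encodes the pro-death protein NOXA, stood at 175 and 189 CPM in cDC1 replicates 1 and 2 and at 46.7 and 46.9 in cDC2 (edgeR adjusted p = 0.0875). Bcl2, a survival protein, had 0 counts in both cDC1 libraries and stood at 11.0 and 9.06 CPM in cDC2. Neither gene passed the test, and the groups did not overlap in either.

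Interferon-response genes went both ways. Irf7, a transcription factor of the response, stood at 294 and 157 CPM in cDC1 against 49.1 and 37.4, and Bst2 (tetherin) at 58.0 and 79.1 against 259 and 164. Tlr1, a receptor for bacterial lipopeptides, had 0 counts in both cDC1 libraries and stood at 9.88 and 14.7 CPM in cDC2. Hk2 (hexokinase 2) stood at 7.22 and 5.82 CPM against 72.6 and 45.5, and Vegfa, an angiogenic factor, at 19.6 and 40.7 against 150 and 145, both below cDC2 while Pfkp and Pfkl lay above. Cd44, the hyaluronan receptor, stood at 183 and 237 CPM against 510 and 519, and Cd80, a costimulatory ligand, at 31.9 and 64.5 against 14.0 and 16.3.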
